A study of Caenorhabditis elegans with 10 samples.

Results

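The genes described here make or move the small molecules and the protective protein with which the nematode Caenorhabditis elegans withstands water loss. They are lea-1, gpdh-1, gpdh-2, hmit-1.1, tps-1 and tps-2, 6 of the 17118 genes that the arrays measured. They were matched by gene symbol in the platform annotation, over probe sets with exactly 1 symbol, and a gene with several was read from its brightest probe set on average. All 6 were found, on 13 probe sets in all. Signals are given on the log2 scale, where a difference of 1 is a doubling, and are not compared between genes because probe sets differ in brightness.

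The xpa-1 strain carried the deletion allele ok698 on chromosome I and lacked the worm counterpart of XPA, a protein of nucleotide excision repair. It was set against Bristol N2, the standard wild type. Each strain was measured on 5 Affymetrix arrays, and every array held total RNA of its own harvest of untreated, mixed-stage animals from 10 to 20 plates. Separate harvests within a strain are called collections here. Both strains grew at 20 degrees for 3 to 4 days on HT115(DE3) bacteria, and both were floated on sucrose at harvest. Sucrose solutions are hypertonic to worms. With every collection floated, no array shows these genes without that step, and the time that the worms spent in sucrose is not stated in the labels.

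When C. elegans meets a hypertonic medium it loses water and then accumulates glycerol, which restores its volume. The rate-limiting step is the conversion of dihydroxyacetone phosphate to glycerol 3-phosphate by glycerol-3-phosphate dehydrogenase, and gpdh-1 is the classical transcriptional reporter of the response in this animal. Trehalose is a disaccharide whose phosphorylated precursor is made by trehalose-6-phosphate synthase. Trehalose and the late embryogenesis abundant protein LEA-1 protect membranes and proteins of larvae that dry out. The transporter HMIT-1.1 brings in myo-inositol together with protons.

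The xpa-1 probe set, which checks the strain labels, read 0.72 ± 0.70 in xpa-1 worms and 6.62 ± 0.19 in N2 worms (SD, n = 5 each), with no overlap (difference -5.90, SE 0.304, limma adjusted p = 5.17e-05). Array medians lay between 4.00 and 4.25. Every list of stage markers had genes with a probe set on the array, which does not show that each stage was present. Yolk protein genes of the adult had list means from 11.19 to 11.43 on xpa-1 arrays and from 10.88 to 11.52 on N2 arrays (5 of 6 genes measured). The 13 oocyte and eggshell genes lay between 9.46 and 9.77 in xpa-1 and between 9.13 and 9.87 in N2. Genes of the molting larva differed more between collections, with list means over 13 genes from 5.24 to 6.30 in xpa-1 and from 4.92 to 6.68 in N2. Major sperm protein genes spanned 9.25 to 10.23 in xpa-1 and 8.05 to 10.67 in N2 (21 of 29 genes measured). Their probe sets all carry the suffix x, for probes that can also match other sequences, so these genes may not be read separately. The list means of the 4 genes marking dauer larvae lay between 1.89 and 4.31 in xpa-1 and between 1.725 and 3.90 in N2. Of these genes, col-40 and cut-1 had means under 2 and read 0 on at least 1 array. The collagen gene col-2 ran from 3.81 to 7.29 in xpa-1 and from 2.58 to 6.87 in N2, and cut-6 from 3 to 3.58 in each strain.

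None of the 6 osmolyte and desiccation genes differed between the strains past the threshold. In the limma comparison over all genes, 0 of 6 had an adjusted p under 0.05, where 0.111% of all 17118 genes were called. At an unadjusted p under 0.05 there was 1 of 6, lea-1, against 3.33% of all genes. The arrays of the strains overlapped for all 6, and 0.374% of all genes had no overlap. The median difference of the 6 was 0.11, against 0.02 over all genes, with 5 of 6 above 0 and 54.7% of all genes above 0. The plot of signals on each array shows these values.

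**Figure D1:**
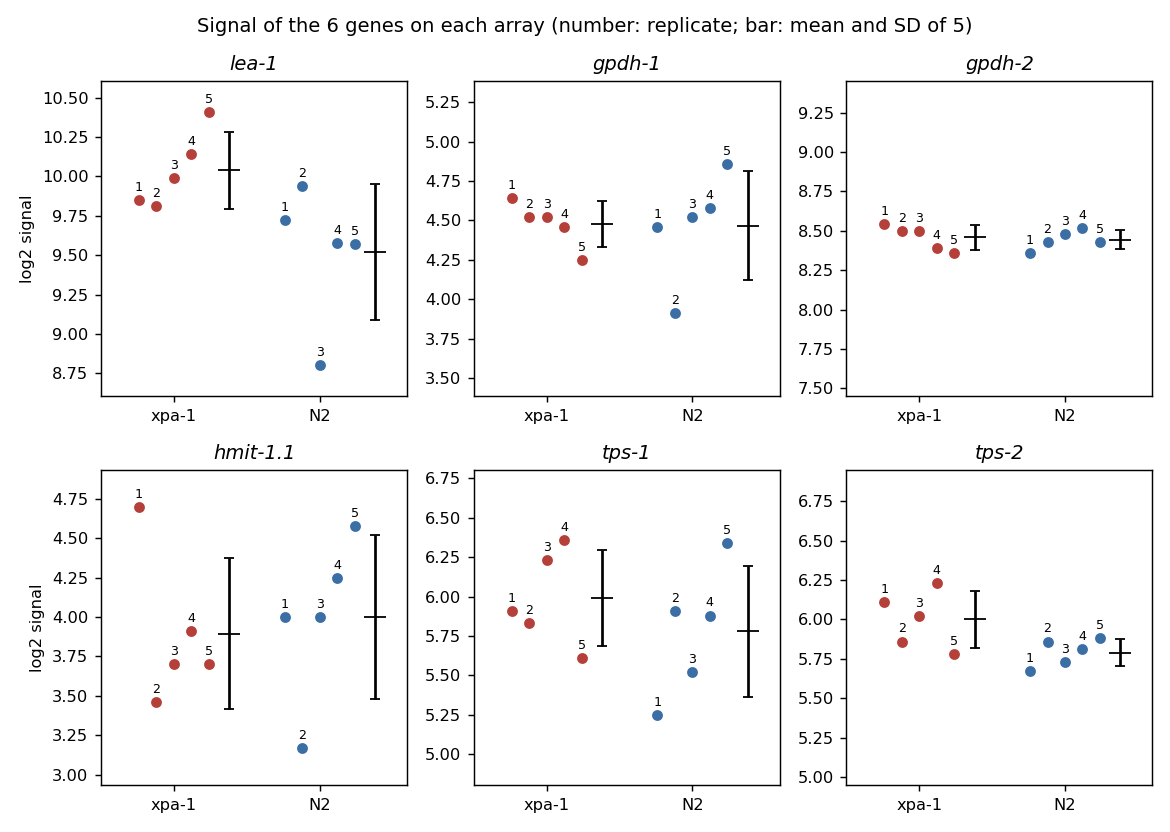
Log2 signal (y axis, a window of 2 units in every panel) of each gene on the 5 xpa-1 arrays (red, left) and the 5 N2 arrays (blue, right), with replicate numbers beside the points and a bar for the mean and SD. The strains overlap in every panel, gpdh-2 varies least, and N2 replicate 3 is the lowest array for lea-1 at 8.80.

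The gene lea-1 (K08H10.1, chromosome V) encodes a group 3 late embryogenesis abundant protein, of a family first known from drying plant seeds, and is needed for full survival of desiccation in dauer larvae. Its signal was 9.85, 9.81, 9.99, 10.14 and 10.41 in xpa-1 replicates 1 to 5, against 9.72, 9.94, 8.80, 9.58 and 9.57 in N2 replicates 1 to 5. All xpa-1 arrays but replicates 1 and 2 lay above every N2 array, and N2 replicate 3 lay well below the other 9. The means were 10.04 ± 0.24 in xpa-1 and 9.52 ± 0.43 in N2 (SD, n = 5 each), a difference of 0.52 (SE 0.211, 95% interval 0.04 to 0.99), or 1.43-fold. The unadjusted p was 0.0359 and the adjusted p was 1 in limma, and p was 0.0317 in a two-sided exact permutation test. Without N2 replicate 3 the difference was 0.34 (limma unadjusted p = 0.0447), and it did not pass the threshold in that setting either. With each single array left out in turn, the limma unadjusted p ran from 0.0177 to 0.0842. For the mean of all lea-1 probe sets it was 0.144.

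RefSeq lists 17 transcripts of lea-1, and the array carries 6 probe sets for it, which did not vary alike. The probe set 187999_at had nearly the pattern of 174552_s_at, which stands for the gene. It read 9.29, 9.21, 9.50, 9.64 and 9.88 in xpa-1, against 9.35, 9.43, 8.06, 8.91 and 8.92 in N2. Its difference was 0.57 (SE 0.257, limma unadjusted p = 0.0534, adjusted p = 1 over probe sets). With strain means removed, these probe sets correlated over the 10 arrays with Pearson r = 0.981 (permutation p = 3e-05, adjusted 0.00051 over 17 pairs of probe sets of 1 gene) and Spearman rho = 0.939 (permutation p = 0.00022). Without the 2 arrays farthest from the median, r was 0.938.

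The other 4 lea-1 probe sets had strain differences nearer to 0. The bright probe set 174700_at averaged 8.09 ± 0.17 in xpa-1 and 8.11 ± 0.12 in N2 (SD, n = 5 each), a difference of -0.018 (95% interval -0.23 to 0.20). The probe set 184322_at differed by 0.07 (SE 0.101) and 172489_x_at by 0.11 (SE 0.0747). The dim 182767_at, with a mean of 2.05 over all arrays, differed by -0.084 (SE 0.334). In N2 replicate 3 the leading pair fell below the mean of the other N2 arrays by 0.90 for 174552_s_at and by 1.09 for 187999_at, while the value there was -0.04 for 174700_at, -0.12 for 182767_at, -0.20 for 172489_x_at and -0.32 for 184322_at. That array was the lowest of all 10 for the leading pair, for 172489_x_at (6.29, other N2 arrays 6.43 to 6.61) and for 184322_at (6.71, other N2 arrays 6.89 to 7.11), and lay within the range of the others for 174700_at and 182767_at. Over the remaining 14 pairs of lea-1 probe sets r lay between -0.51 and 0.73, and 0 of them had an adjusted permutation p under 0.05. Which of the transcripts each probe set reads is not stated in the sources used here. A suffix of s or x marks probes that can match more than 1 transcript, of the same gene or of others.

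**Figure D2:**
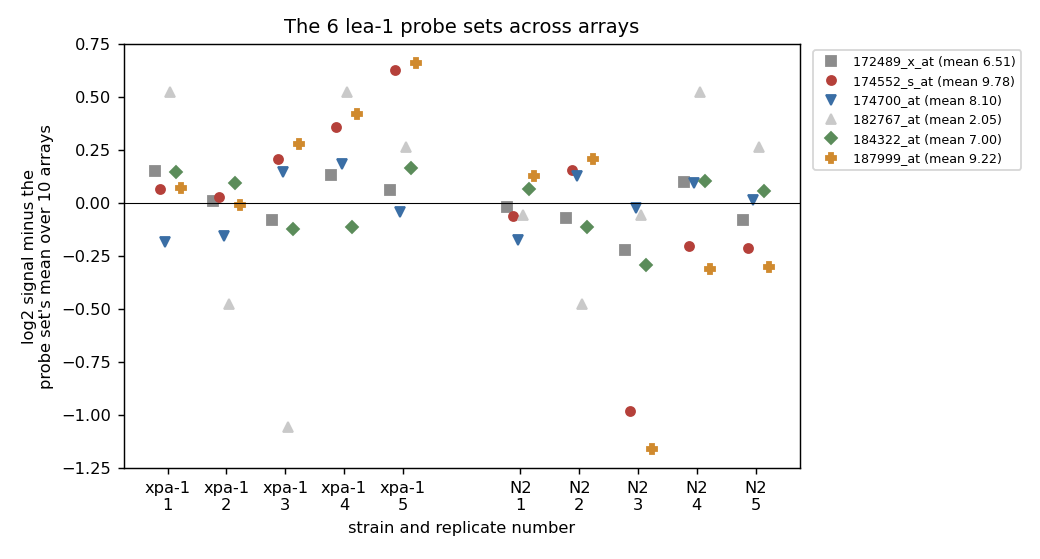
Log2 signal minus the mean of the probe set over all 10 arrays (y axis) for the 6 lea-1 probe sets on each array (x axis, 5 xpa-1 then 5 N2), with the mean level in the legend. The probe sets 174552_s_at and 187999_at move together and are lowest on N2 replicate 3, where 172489_x_at (6.29) and 184322_at (6.71) are lowest too and 174700_at lies within the range of the other N2 arrays.

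No strain difference was detected for the enzymes of glycerol synthesis. The gene gpdh-1 (F47G4.3, chromosome I) read 4.64, 4.52, 4.52, 4.46 and 4.25 in xpa-1 replicates 1 to 5, against 4.46, 3.91, 4.52, 4.58 and 4.86 in N2 replicates 1 to 5. The N2 arrays enclosed all xpa-1 arrays, with N2 replicate 2 lowest and N2 replicate 5 highest. The difference was 0.012 (SE 0.162, 95% interval -0.35 to 0.38, limma adjusted p = 1), so that changes beyond 0.78-fold or 1.3-fold lay outside the interval. This gene stood in the lower part of the scale, where log2 values of neighbouring whole-number signals are visible as steps.

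The paralogue gpdh-2 (K11H3.1, chromosome III), which encodes the same enzyme activity, was the steadiest of the 6 genes. Its arrays read 8.54, 8.50, 8.50, 8.39 and 8.36 in xpa-1 and 8.36, 8.43, 8.48, 8.52 and 8.43 in N2. All 10 arrays lay within 1.13-fold of each other, with ranges of 8.36 to 8.54 in xpa-1 and 8.36 to 8.52 in N2. The difference was 0.014 (SE 0.0586, 95% interval -0.12 to 0.15, limma adjusted p = 1). A second probe set gave 0.018 (SE 0.0664), with means of 8.10 ± 0.10 in xpa-1 and 8.08 ± 0.07 in N2 (SD, n = 5 each).

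The proton and myo-inositol cotransporter gene hmit-1.1 (Y51A2D.4, chromosome V) was dim and variable. It read 4.70, 3.46, 3.70, 3.91 and 3.70 in xpa-1, against 4.00, 3.17, 4.00, 4.25 and 4.58 in N2. The highest array of all was xpa-1 replicate 1 and the lowest N2 replicate 2, 2.89-fold apart. The difference was -0.11 (SE 0.298, 95% interval -0.78 to 0.57, limma adjusted p = 1).

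Both trehalose-6-phosphate synthase genes had a mean that was higher in xpa-1 by about the same amount, without passing the threshold. The gene tps-1 (ZK54.2, chromosome X) read 5.91, 5.83, 6.23, 6.36 and 5.61 in xpa-1, against 5.25, 5.91, 5.52, 5.88 and 6.34 in N2. The strains overlapped over most of their range, with N2 replicate 1 lowest and xpa-1 replicate 4 highest. The difference was 0.21 (SE 0.219, 95% interval -0.29 to 0.70, limma adjusted p = 1), and the second tps-1 probe set gave 0.21 as well (SE 0.161). Without N2 replicate 1 the tps-1 difference was 0.08, and without N2 replicate 5 it was 0.35.

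The gene tps-2 (F19H8.1, chromosome II) read 6.11, 5.86, 6.02, 6.23 and 5.78 in xpa-1, against 5.67, 5.86, 5.73, 5.81 and 5.88 in N2. In xpa-1, replicates 1, 3 and 4 lay above every N2 array, and replicates 2 and 5 lay among the N2 arrays. The means were 6.0 ± 0.18 in xpa-1 and 5.79 ± 0.09 in N2 (SD, n = 5 each), a difference of 0.21 (SE 0.0945, 95% interval -0.0031 to 0.42), or 1.16-fold. The unadjusted p was 0.0528 and the adjusted p 1 in limma, and p was 0.0714 in a two-sided exact permutation test. With the mean of the molting genes as a covariate the difference was 0.22 (SE 0.068, limma unadjusted p = 0.0113, adjusted p = 0.792). The limma unadjusted p was 0.0763 after centring on array medians and 0.121 with replicate number as a block. With each single array left out in turn it ran from 0.0163 to 0.116.

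**Figure D3:**
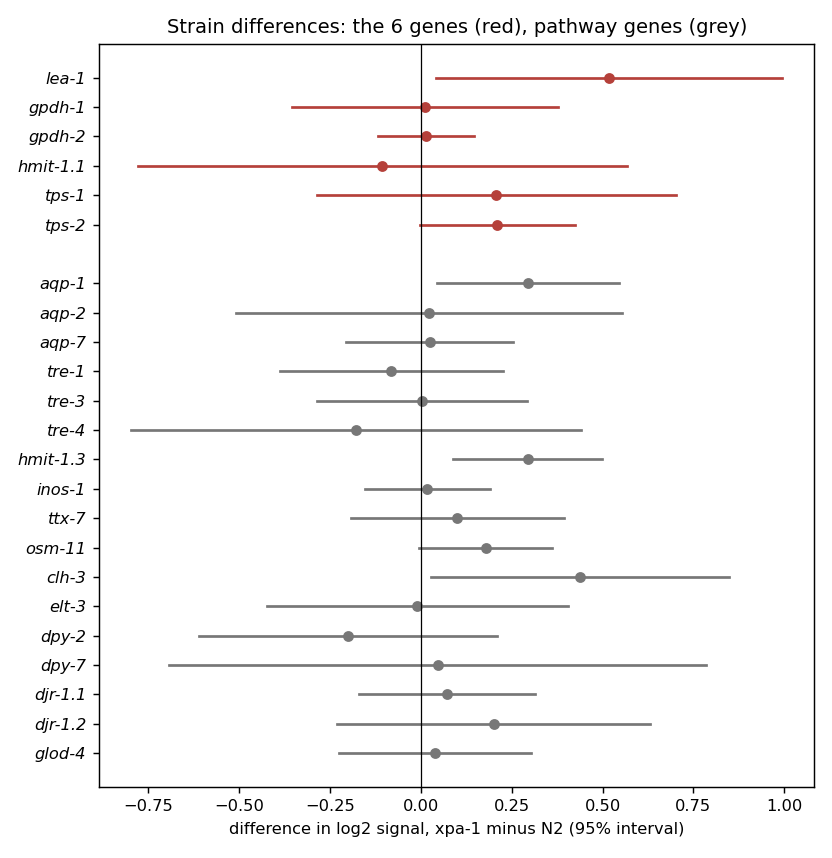
Difference in log2 signal, xpa-1 minus N2 (x axis), with the 95% interval of the limma fit for the 6 genes (red) and for 17 genes of the surrounding pathways (grey). The intervals of lea-1, aqp-1, hmit-1.3 and clh-3 lie above 0, and none of these genes passed the threshold after adjustment over all genes.

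The spread between collections was compared as well as the level. The SD over 5 arrays was smaller in xpa-1 than in N2 for 4 of the 6 genes, and 64.2% of the 8678 genes with a mean of at least 4 also had the smaller SD in xpa-1. For lea-1 the SD was 0.24 in xpa-1 and 0.43 in N2, and without N2 replicate 3 the order turned round (log2 ratio of SDs, xpa-1 over N2, -0.82 with all arrays and 0.50 without it). For gpdh-1 the SD was 0.14 in xpa-1 and 0.35 in N2, and the log2 ratio was -1.27 with all arrays, -0.30 without N2 replicate 2 and -2.20 without xpa-1 replicate 5. For tps-2 it was 0.18 in xpa-1 and 0.09 in N2. An exact permutation test of the absolute deviations from the strain's median gave p from 0.175 for tps-2 to 0.873 for hmit-1.1, with an adjusted p of 1 over all genes for each. Among all genes 0 passed in this test, and 0.298% had an unadjusted p under 0.05. With 5 arrays a strain the test is conservative, since the middle array of each strain has a deviation of 0.

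Pooled over the strains, the SD of gpdh-2 was 0.07, lower than that of all but 1.45% of the genes with a mean of at least 4. That of tps-2 was 0.14, at the 20.8 percentile. The SDs of tps-1 (0.36) and lea-1 (0.35) stood at the 85.5 and 84.2 percentiles. That of gpdh-1 (0.27) stood at the 67.9 percentile, and that of hmit-1.1 (0.50), whose own mean was 3.95, at the 92.8 percentile. The genes with a mean of at least 4 were not matched to these in brightness. The median over those genes was 0.21.

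No pair of the genes was shown to vary together between collections. With strain means removed, 15 pairs were correlated over the 10 arrays, and 0 had an adjusted p under 0.05 in a permutation test. The p values of that test are approximate, because values were permuted over both strains together. The closest pairs were gpdh-1 with hmit-1.1 and tps-1 with tps-2. For gpdh-1 with hmit-1.1, Pearson r was 0.817 (permutation p = 0.00528, adjusted 0.0589) and Spearman rho 0.749 (permutation p = 0.0152). Both genes were lowest on N2 replicate 2 within N2 and highest on N2 replicate 5, and without the 2 arrays farthest from the median r was 0.566. For tps-1 with tps-2, r was 0.784 (permutation p = 0.00786, adjusted 0.0589) and rho 0.758 (permutation p = 0.0147), and r was 0.832 without the 2 farthest arrays. The highest r of lea-1 with any of the others was 0.104, with tps-1, and its r was -0.589 with gpdh-2 and -0.506 with gpdh-1. Centring each array on its median lowered r to 0.715 for gpdh-1 with hmit-1.1 and to 0.597 for tps-1 with tps-2. After the same centring r of lea-1 was -0.101 with gpdh-2 and -0.471 with gpdh-1.

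Because the worms were of mixed stage, each gene was also set against the 6 marker lists, 36 relations in all, of which 0 had an adjusted p under 0.05 in a permutation test. The largest for tps-1 was with the molting genes, at r = 0.825 (permutation p = 0.00359, adjusted 0.0646) and rho = 0.855 (permutation p = 0.00308). Without the 2 arrays farthest from the median of the molting list, r was 0.617. For tps-2 against the molting genes r was 0.764 (permutation p = 0.00999, adjusted 0.0899) and rho 0.721 (permutation p = 0.0227), with r = 0.628 without those 2 arrays. After centring each array on its median these values were 0.734 for tps-1 and 0.364 for tps-2. With the oocyte and eggshell genes r was -0.784 for tps-1 (permutation p = 0.00708, adjusted 0.085) and -0.617 for tps-2 (permutation p = 0.0551, adjusted 0.147). Without the 2 arrays farthest from the median of the oocyte list, r was -0.428 for tps-1 and -0.645 for tps-2. With the yolk protein genes r was -0.691 for tps-1 and -0.465 for tps-2. With the dauer genes it was 0.558 for tps-1 and 0.684 for tps-2. For lea-1 the dauer value was -0.439 (adjusted permutation p = 0.326), and -0.613 after centring each array on its median. The adjusted permutation p of the yolk and dauer values of the tps genes lay between 0.129 and 0.318. After centring on array medians, r of tps-1 was -0.682 with the oocyte, -0.637 with the yolk and 0.393 with the dauer genes. For tps-2 the centred values were -0.277, -0.177 and 0.254.

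Both tps genes were lowest within N2 on replicate 1, where the molting list mean was 4.92, and highest on replicate 5, where it was 6.68. The N2 replicate 3 went the other way, with the second highest molting list mean in N2 (6.21) and the second lowest signals of tps-1 (5.52) and tps-2 (5.73) there. In xpa-1 both were lowest on replicate 5, where the molting list mean was 5.24. The part of stage composition in the tps signals was not tested. In whole worms, fewer cells of a type and less RNA per cell cannot be told apart.

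**Figure D4:**
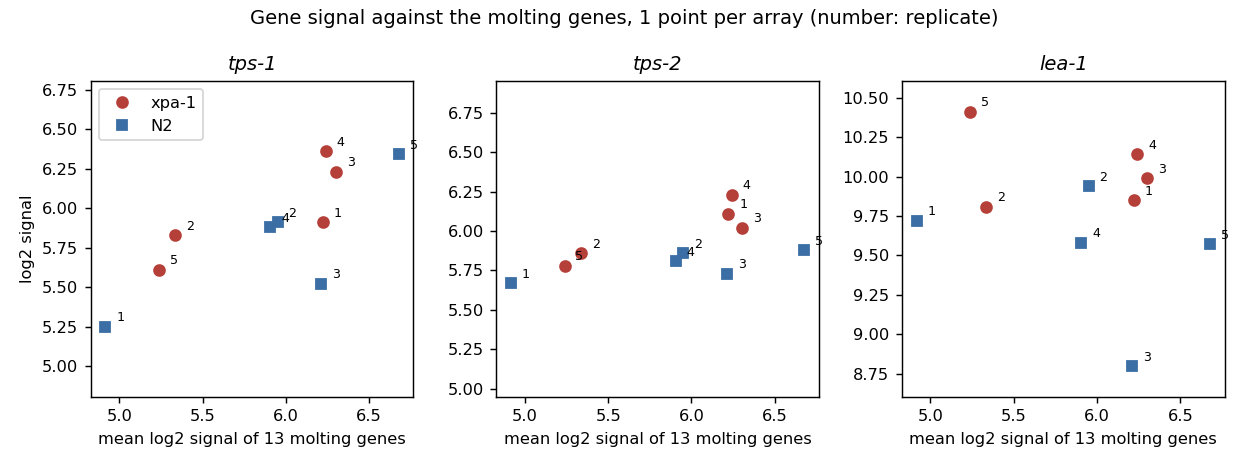
Log2 signal of tps-1, tps-2 and lea-1 (y axes, windows of 2 units) against the mean log2 signal of 13 molting genes (x axis) on each xpa-1 array (red circles) and N2 array (blue squares), numbered by replicate. After removal of strain means r was 0.825 for tps-1 and 0.764 for tps-2, neither past the threshold after adjustment (permutation p adjusted to 0.0646 and 0.0899), and -0.317 for lea-1.

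Negative values were found for lea-1 with the major sperm protein genes and the fasting genes, neither past the threshold, at r = -0.691 (permutation p = 0.0303, adjusted 0.129) and rho = -0.745 (permutation p = 0.0172) for the sperm proteins and r = -0.661 (permutation p = 0.0395, adjusted 0.129) and rho = -0.806 (permutation p = 0.00726) for fasting. Without the 2 arrays farthest from the list's median, r was -0.863 and -0.648. For gpdh-1 with the sperm proteins r was 0.728 (permutation p = 0.0258, adjusted 0.129) and rho 0.796 (permutation p = 0.0081), with r = 0.366 without those arrays. For gpdh-1 with the oocyte and eggshell genes r was -0.690 (adjusted permutation p = 0.129). For hmit-1.1 r was -0.663 with the yolk protein genes and 0.649 with the sperm proteins (adjusted permutation p = 0.129 for each). For gpdh-2 the largest value was with the fasting genes, at r = 0.83 (permutation p = 0.00231, adjusted 0.0646) and rho = 0.726 (permutation p = 0.0212). It was 0.581 without the 2 farthest arrays and 0.463 after centring. The fasting list had means from 4.34 to 4.95 in xpa-1 and from 4.19 to 4.75 in N2 over its 7 genes. Several of these were dim. The gene fil-2 read 0 on every N2 array and at most 1.58 in xpa-1. Means over all arrays were 2.08 for lipl-4, 2.69 for fil-1 and 3.49 for lipl-2. The range of gpdh-2 itself, from 8.36 to 8.54, is smaller than the range of array medians, from 4.00 to 4.25.

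For each gene the 3 genes of most similar pattern were taken among 6877 with a mean log2 signal of at least 5, by Pearson r over the 10 arrays with strain means removed. Being the highest of so many, these values are a description. The closest to lea-1 were unc-94, a tropomodulin gene (r = 0.937), sec-6 of the exocyst (0.924) and the kinase gene pdk-1 (0.901). For tps-1 they were the transcription factor gene mef-2 (r = 0.978), F56D5.4 (0.977) and nlp-80 (0.976), and for tps-2 the kinase genes kin-29 (0.936) and egl-4 (0.932) and let-805 (0.913), which encodes myotactin. Those closest to hmit-1.1 were the alpha-actinin gene atn-1 (r = 0.963) and ads-1 (0.951), and those closest to gpdh-1 were ZK1321.4 (0.95) and C06H5.6 (0.925). In the third place hmit-1.1 (0.941) and gpdh-1 (0.923) shared 1 gene that has only a clone name. For gpdh-2 they were the coatomer gene copd-1 (r = 0.939), the aquaporin gene aqp-10 (0.928) and K07E1.1 (0.922).

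Of 53 genes listed around these pathways, 43 were measured on a probe set with 1 symbol, and 0 passed the threshold in limma in either direction. At an unadjusted p under 0.05 there were 3 of 43, aqp-1, hmit-1.3 and clh-3, each with the higher mean in xpa-1, against 3.33% of all genes. Of the 43 genes, 26 differences were above 0 and 16 below, where 54.7% of all genes were above 0, and their median was 0.02, as over all genes.

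The inositol list held the only gene of the 43 whose strains did not overlap. All 4 measured genes of inositol transport and synthesis had a difference above 0, against 54.7% of all genes, and 0 passed. Their median was 0.09, with 0.03 without N2 replicate 5 and 0.15 without xpa-1 replicate 4. The transporter gene hmit-1.3, a paralogue of hmit-1.1, read 6.36, 6.29, 6.30, 6.52 and 6.46 in xpa-1, against 5.88, 5.95, 6.17, 6.21 and 6.25 in N2. Every xpa-1 array lay above every N2 array, with 6.29 as the lowest in xpa-1 and 6.25 as the highest in N2. The difference was 0.29 (SE 0.0912, 95% interval 0.09 to 0.50), or 1.23-fold, with an unadjusted p of 0.0102 and an adjusted p of 1 in limma. In a two-sided exact permutation test p was 0.00794, the smallest that 5 arrays against 5 allow. Among all genes, 0.263% had every xpa-1 array above every N2 array. The inositol phosphate synthase gene inos-1 averaged 7.43 ± 0.12 in xpa-1 and 7.41 ± 0.09 in N2, and the inositol monophosphatase gene ttx-7 8.42 ± 0.13 in xpa-1 and 8.32 ± 0.27 in N2 (SD, n = 5 each).

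Of the 16 genes of glycerol synthesis and permeation 11 were measured, with a median difference of 0.02, and 0 passed. The aquaporin gene aqp-1 read 6.85, 6.79, 6.97, 6.77 and 6.57 in xpa-1, against 6.36, 6.27, 6.44, 6.67 and 6.73 in N2. Apart from xpa-1 replicate 5 its xpa-1 arrays lay above every N2 array, and the difference was 0.30 (SE 0.111, limma unadjusted p = 0.0253, adjusted p = 1). The aquaporin genes aqp-2 and aqp-7 differed by 0.022 (SE 0.236) and 0.024 (SE 0.102).

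Trehalose processing (6 genes, all measured) had a median difference of -0.014, with 3 above 0 and 3 below. The trehalase genes tre-1 and tre-3 differed by -0.08 (SE 0.136) and 0.0020 (SE 0.128), and the dim tre-4 by -0.18 (SE 0.274). The desiccation list (6 of 8 measured) had a median of -0.013. Its DJ-1 family gene djr-1.1 averaged 7.26 ± 0.18 in xpa-1 and 7.18 ± 0.16 in N2, and the glyoxalase gene glod-4 6.46 ± 0.22 in xpa-1 and 6.43 ± 0.14 in N2 (SD, n = 5 each). The paralogue djr-1.2 was listed at 0 on every array but xpa-1 replicate 4. Other genes of the desiccation list were dim too, with means over all arrays of 1.55 and 2.91.

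Among 11 of 13 measured regulators of the osmotic response the median difference was 0.05, and 0 passed. The median was -0.09 without N2 replicate 1 and at most 0.07 with single arrays left out. The chloride channel gene clh-3 was dim, at 3.32 ± 0.10 in xpa-1 and 2.88 ± 0.41 in N2 (SD, n = 5 each), with a difference of 0.44 (SE 0.182, limma unadjusted p = 0.0387, adjusted p = 1). The secreted Notch co-ligand gene osm-11, whose loss raises glycerol, differed by 0.18 (SE 0.0814, limma unadjusted p = 0.0561, adjusted p = 1), and the GATA factor gene elt-3 by -0.010 (SE 0.184).

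The annular furrow collagens, cuticle proteins whose loss switches on gpdh-1 without hypertonic medium, had a median difference of 0.05 over 5 of 6 measured genes, and 0 passed. The median was -0.30 without N2 replicate 1 and 0.25 without N2 replicate 5. The gene dpy-7 lay between 6.0 and 7.01 in xpa-1 and between 5.67 and 7.34 in N2, a range of 3.18-fold over all arrays, with a difference of 0.05 (SE 0.328). The gene dpy-2 averaged 9.19 ± 0.33 in xpa-1 and 9.39 ± 0.27 in N2 (SD, n = 5 each), a difference of -0.20 (SE 0.182).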

How the data were processed

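RNA of 5 xpa-1 and 5 N2 collections was measured, 1 array each. The authors deposited log2 signals per probe set, made with Affymetrix Expression Console per the submitters' processing notes. How probes were summarised and arrays scaled is not stated in the sources used here. Of 22625 probe sets, 77 controls were left out. They were neither rescaled nor filtered. The number of arrays limits the precision.

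All 22548 probe sets were fitted in limma 3.58.1 under R 4.3.3, by lmFit and eBayes with strain as sole term. Two-sided p values were Benjamini-Hochberg adjusted over 17118 genes with a threshold of 0.05. Levels are mean ± SD, differences xpa-1 minus N2 with the standard error (SE). Exact permutation tests used all 252 divisions of the arrays, and correlations 100000 permutations. For correlations the values with strain means removed were permuted over both strains together. Their permutation p values, also for probe sets and marker lists, are therefore approximate and may be too small. Scripts were tested on simulated data. Named were the 6 genes, their 3 nearest in pattern, and of each pathway list any gene past the threshold, the 2 brightest and that with the smallest p. Members and lists were chosen with earlier results of these data known. Locus names, chromosomes and transcript counts come from RefSeq, assembly WBcel235. Arrays were fitted unpaired, and the labels do not say whether replicate numbers pair them. Alternatives covered scaling, an offset of 16, a mean of at least 4, all probe sets of a gene, variance options, weights, covariates, the replicate block and each array left out.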

Additional observations from a re-analysis of the deposited data

Results flagged for a closer look

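Among 71 groups of 5 values, 4 had 1 array standing well away from the rest, and chance gives about 1 in 20. The second gpdh-2 probe set stood at 7.92 in xpa-1 replicate 5, while the other xpa-1 arrays lay between 8.12 and 8.17. The mean of the yolk protein genes was 10.88 in N2 replicate 5, against 11.36 to 11.52 on the other N2 arrays. The DJ-1 family gene djr-1.1 read 6.91 in the same N2 replicate 5, against 7.19 to 7.29 on the others. The gene djr-1.2 read 1 in xpa-1 replicate 4 and was listed at 0 on the other xpa-1 arrays, which is the lowest step of the scale.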

How the results depend on the processing

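No alternative brought any of the 6 genes past the threshold in limma: the count was 0 under each, and the lowest adjusted p, for tps-2 with the molting list as a covariate, was 0.792. Differences near 0 changed sign. That of gpdh-1 was -0.014 after quantile normalization and -0.0020 after centring on array medians, and from -0.13 to 0.11 with single arrays left out. That of gpdh-2 was -0.010 after quantile normalization, -0.011 with array weights and from -0.0070 to 0.039 with single arrays left out, and that of hmit-1.1 ran from -0.31 to 0.039 there. The lea-1 probe sets 174700_at and 182767_at, added after seeing the data, gave -0.018 and -0.084, and the mean of all lea-1 probe sets 0.19. With single arrays left out, lea-1 ran from 0.34 to 0.62, tps-1 from 0.08 to 0.35 and tps-2 from 0.15 to 0.27. List medians also crossed 0 there, from -0.01 to 0.07 for glycerol, from -0.08 to 0.03 for trehalose and from -0.05 to 0.08 for desiccation. The log2 ratio of SDs ran from -1.52 to 0.50 for lea-1 and from -1.50 to 0.80 for hmit-1.1. Centring on array medians turned 6 of the 15 correlations between the genes negative: r was -0.31 for gpdh-1 with tps-2, -0.40 for gpdh-2 with hmit-1.1, -0.51 and -0.56 for gpdh-2 with tps-1 and tps-2, and -0.066 and -0.22 for hmit-1.1 with tps-1 and tps-2. Without N2 arrays 1 and 5, a setting chosen after seeing the data, 1 of the 36 relations with marker lists passed, gpdh-1 with the major sperm proteins (r = 0.938, adjusted permutation p = 0.00972). The cause was not tested.

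Same-numbered arrays of the strains correlated in their deviations with r from -0.70 to 0.023, and 0 of 5 N2 arrays correlated best with its own number. These values cannot show whether same-numbered arrays were handled together. With replicate number as a block the lea-1 difference was 0.52 (limma unadjusted p = 0.0613) and that of tps-2 0.21 (0.121). Over all genes, 5 passed with the block and 12 with the filter on dim probe sets, against 19. With the filter hmit-1.1 was not tested, since its mean was below 4.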
